A study of Mus musculus with 6 samples.

Results

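The colon response to the engineered interleukin-22 variant 22-B3 was set directly against the response to the wild-type cytokine, in RNA-seq counts of mouse colon tissue. The members were chosen by the count columns and a minimum level and not by any difference between the groups. They are the 4 libraries of 22-B3 and WT IL-22 out of 6 in the series, and the 15302 of 35275 genes in the table that had a count of 10 or more in at least 2 of those 4 libraries. Of the 19973 genes left out, 13576 had no count in any of the 4 libraries. At the edge of the rule, 143 genes lay just inside, with a second-highest count of exactly 10, and 167 lay just outside, with 9.

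The groups were 2 libraries of colon from C57BL/6 mice given 22-B3 at 200 µg per mouse, 2 given WT IL-22 at 200 µg per mouse, and 2 given phosphate-buffered saline (PBS), all 6 h after treatment. No genotype, sex or age is given in the labels used here, and the labels do not say whether the 2 libraries of a group came from separate animals. The PBS libraries took no part in the test, and their levels are given beside the others only to place them. Frozen tissue was ground whole, so the values are averages over epithelium, muscle, stroma and immune cells. In such bulk samples, fewer cells of a type and less RNA per cell cannot be told apart.

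Interleukin-22 is made by innate lymphoid cells and T cells and acts on epithelial cells, which carry its receptor. The receptor joins the specific chain Il22ra1 to the shared chain Il10rb, and the kinases Jak1 and Tyk2 bound to them phosphorylate STAT3. In the gut the cytokine is known for inducing antimicrobial proteins, mucins, fucosylated glycans and epithelial growth. The pathway switches itself off through Socs3, an inhibitor of JAK kinases whose gene is itself a direct STAT3 target. The comparison asks which of these genes stood at different levels after the variant and after the wild-type protein.

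The 22-B3 libraries held 17428528 and 19022869 counts, the WT IL-22 libraries 20740041 and 22081904, and the PBS libraries 19329695 and 19744956. The defining colon epithelial genes were abundant in every library. Epcam, an adhesion protein of epithelial cells, had 1828 and 1926 CPM (read counts scaled to a common library size with TMM factors) with 22-B3, 1632 and 1576 CPM with WT IL-22, and 1796 and 1775 CPM with PBS. The replicates of a treatment differed from each other about as much as they differed from the other treatment. Between replicates, the coefficient of variation beyond counting error came to 21.8% with 22-B3, 16.8% with WT IL-22 and 5.46% with PBS. 22-B3 replicate 1 differed beyond counting error (5% point of chi-square) in 47.6% and 51% of genes from the WT IL-22 libraries, and in 58.4% from its own replicate. For 22-B3 replicate 2 the shares against the WT IL-22 libraries were 63.4% and 54.7%.

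4 genes passed the test at an adjusted p under 0.05, which is 0.0261% of those tested. Socs3 and the lipid transporter Mfsd2a fell with 22-B3 relative to WT IL-22, and the antibody gene segments Ighv1-54 and Igkv2-109 rose. Over all 15302 genes, 2 genes were higher, a background of 0.0131%, and 2 were lower, also 0.0131%, by edgeR's quasi-likelihood test with Benjamini-Hochberg adjustment (called edgeR adjusted p below). At an adjusted p under 0.1 there were 5 genes higher (0.0327%) and 10 lower (0.0654%), and at an unadjusted p under 0.05 there were 430 higher (2.81%) and 481 lower (3.14%). The median log2 change of all genes was 0.00046. DESeq2 on the same counts called 24 genes higher and 56 lower, among them all 15 genes with an edgeR adjusted p under 0.1. The edgeR fit to all 6 libraries, in which the PBS pair lowered the estimated spread, called 5 higher and 11 lower.

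**Figure D1:**
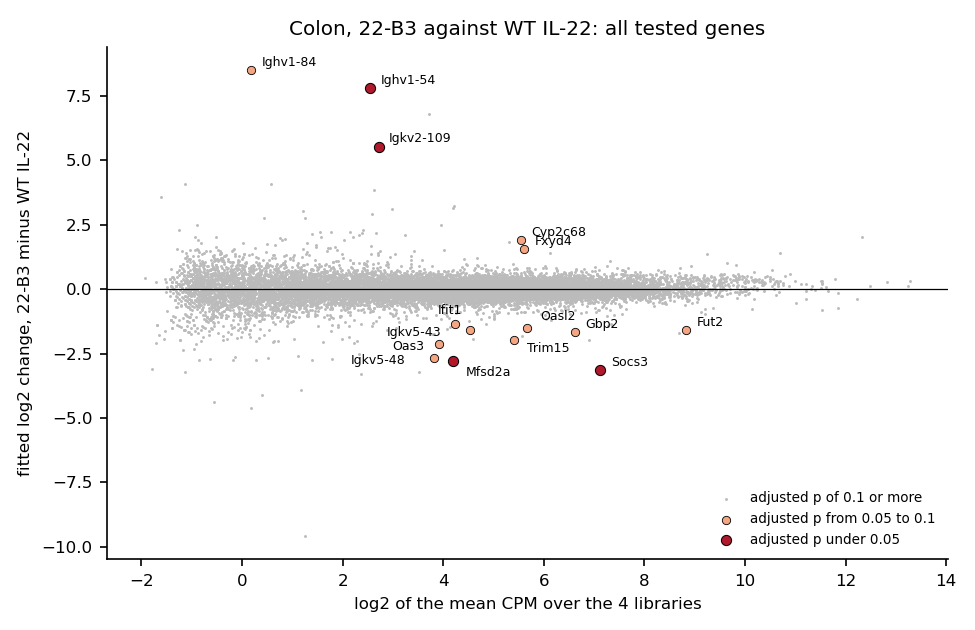
Each point is 1 of the 15302 tested genes, with the log2 of its mean CPM over the 4 libraries on the horizontal axis and the fitted log2 change, 22-B3 minus WT IL-22, on the vertical axis. Dark red marks the 4 genes with an edgeR adjusted p under 0.05 and orange the 11 with an adjusted p from 0.05 to 0.1. Socs3 (red) and Fut2 (orange) lie at high levels, while Ighv1-84 (orange) lies near the low end.

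Socs3 (ENSMUSG00000053113, chromosome 11, 117966079 to 117970047, minus strand, mm10) had 25.3 and 31.9 CPM with 22-B3, 247 and 253 CPM with WT IL-22, and 7.82 and 7.09 CPM with PBS. The 2 treatments did not overlap, and both 22-B3 libraries stood above both PBS libraries. The group means were 28.6 ± 4.69 CPM with 22-B3 and 250.1 ± 4.27 CPM with WT IL-22 (SD, n = 2 each). The fitted log2 change was -3.13 (SE 0.212, 95% interval -3.61 to -2.65, edgeR adjusted p = 0.00283), which puts the level with 22-B3 at 0.114 times the level with WT IL-22. Socs3 passed in all 18 alternative settings, with log2 changes from -3.31 to -2.97.

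Mfsd2a, which carries lysophosphatidylcholine and with it long-chain polyunsaturated fatty acids into cells (ENSMUSG00000028655, chromosome 4, 122946850 to 122961188, minus strand), had 5.04 and 4.11 CPM with 22-B3, 37.6 and 26.6 CPM with WT IL-22, and 2.21 and 2.29 CPM with PBS. The order of the 3 groups was that of Socs3, and no library of a group overlapped another group. The log2 change was -2.81 (SE 0.26, 95% interval -3.40 to -2.22, edgeR adjusted p = 0.0125), a level of 0.143 times that with WT IL-22. Mfsd2a also passed in all 18 alternative settings, with log2 changes from -3.04 to -2.38.

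The promoter windows of Socs3, Mfsd2a and 5 genes with an adjusted p from 0.05 to 0.1 are printed below. These 7 are all the genes with an adjusted p under 0.1 that stood below their WT IL-22 level with 22-B3 and had a window. Each runs 5′ to 3′ from 250 bases before to 50 after the gene's start in RefSeq, assembly GRCm38.p6. Capitals mark TTCNNNGAA, the spacing that STAT factors bind, and the core of the interferon-stimulated response element on either strand, searched as GAAA, any 2 bases and GAAA again. No window below holds both. Of the 15 genes with an adjusted p under 0.1, 9 matched a window, and where a gene had more than 1 start the first is shown.
Socs3 (chr11:117969317-117969616, minus strand): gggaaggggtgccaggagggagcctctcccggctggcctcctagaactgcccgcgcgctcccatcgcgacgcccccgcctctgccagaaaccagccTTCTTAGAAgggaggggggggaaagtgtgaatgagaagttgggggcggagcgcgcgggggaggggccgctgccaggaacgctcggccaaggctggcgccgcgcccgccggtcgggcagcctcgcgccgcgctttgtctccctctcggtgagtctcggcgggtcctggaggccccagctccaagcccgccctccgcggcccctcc
Mfsd2a (chr4:122961139-122961438, minus strand): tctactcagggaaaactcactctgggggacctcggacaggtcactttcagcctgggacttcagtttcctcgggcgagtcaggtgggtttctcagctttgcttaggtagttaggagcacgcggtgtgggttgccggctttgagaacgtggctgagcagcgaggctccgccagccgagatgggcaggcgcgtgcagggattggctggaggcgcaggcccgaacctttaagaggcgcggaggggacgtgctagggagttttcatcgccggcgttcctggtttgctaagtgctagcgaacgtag
Trim15 (chr17:36867161-36867460, minus strand): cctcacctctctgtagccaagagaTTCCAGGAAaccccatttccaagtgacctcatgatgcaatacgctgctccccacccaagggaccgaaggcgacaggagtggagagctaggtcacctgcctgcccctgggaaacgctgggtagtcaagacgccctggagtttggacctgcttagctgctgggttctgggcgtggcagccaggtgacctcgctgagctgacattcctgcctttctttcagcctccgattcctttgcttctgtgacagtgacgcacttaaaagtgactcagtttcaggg
Gbp2 (chr3:142620413-142620712, plus strand): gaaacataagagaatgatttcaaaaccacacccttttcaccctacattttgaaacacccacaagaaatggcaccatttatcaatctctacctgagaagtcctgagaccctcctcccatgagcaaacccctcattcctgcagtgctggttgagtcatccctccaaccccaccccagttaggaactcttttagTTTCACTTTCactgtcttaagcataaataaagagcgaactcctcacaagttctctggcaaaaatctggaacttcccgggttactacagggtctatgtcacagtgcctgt
Oasl2 (chr5:114896684-114896983, plus strand): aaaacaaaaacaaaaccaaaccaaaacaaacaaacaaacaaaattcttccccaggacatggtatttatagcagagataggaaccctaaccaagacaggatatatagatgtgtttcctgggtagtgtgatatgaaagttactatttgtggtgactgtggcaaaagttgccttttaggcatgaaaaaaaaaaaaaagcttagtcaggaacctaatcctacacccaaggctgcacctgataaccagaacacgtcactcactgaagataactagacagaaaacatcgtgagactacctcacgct
Oas3 (chr5:120777610-120777909, minus strand): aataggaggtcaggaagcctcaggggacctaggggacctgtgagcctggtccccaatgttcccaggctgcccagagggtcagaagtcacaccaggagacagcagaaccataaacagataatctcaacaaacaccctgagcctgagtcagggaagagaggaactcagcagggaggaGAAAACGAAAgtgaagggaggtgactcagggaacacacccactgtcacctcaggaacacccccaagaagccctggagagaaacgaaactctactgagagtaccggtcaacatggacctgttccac
Ifit1 (chr19:34640639-34640938, plus strand): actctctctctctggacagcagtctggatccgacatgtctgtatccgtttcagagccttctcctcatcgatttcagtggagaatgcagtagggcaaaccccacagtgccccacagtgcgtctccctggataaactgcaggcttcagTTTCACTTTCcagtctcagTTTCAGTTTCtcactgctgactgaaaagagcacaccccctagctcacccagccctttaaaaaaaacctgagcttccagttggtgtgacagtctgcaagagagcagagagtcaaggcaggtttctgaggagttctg

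Socs3 held TTCTTAGAA, which began 154 bases before the start. Trim15 held TTCCAGGAA, and Gbp2, Oas3 and Ifit1 each held the interferon element. The Ifit1 window held it at 2 places, both on the opposite strand. Mfsd2a held neither motif, nor did the windows of Cyp2c68, Fxyd4 and Oasl2. Of all 32851 RefSeq windows of this length, 8.3% held TTCNNNGAA and 3.44% held that interferon core. A match describes letters only and does not show that a factor was bound.

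The 11 genes with an adjusted p from 0.05 to 0.1 did not pass, and they are given as values. Trim15, a ubiquitin ligase of the tripartite-motif family (ENSMUSG00000050747, chromosome 17, 36860691 to 36867210), had 14.1 and 20.5 CPM with 22-B3, 74.7 and 60.5 CPM with WT IL-22, and 5.76 and 6.00 CPM with PBS. Its log2 change was -1.97 (SE 0.239, edgeR adjusted p = 0.0594). Fut2, the fucosyltransferase that adds terminal fucose to mucosal glycans, had 196 and 256 CPM with 22-B3, 727 and 637 CPM with WT IL-22, and 133 and 140 CPM with PBS (log2 change -1.59, edgeR adjusted p = 0.0976). In both genes the 22-B3 libraries lay between the other groups and nearer to PBS.

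4 of the 11 are interferon-inducible, and as members of multigene families they are uncertain where reads match a paralog. Gbp2, a guanylate-binding protein of cell-autonomous defence (ENSMUSG00000028270, chromosome 3, 142620602 to 142638008), had 51.1 and 42.5 CPM with 22-B3, 126 and 174 CPM with WT IL-22, and 40.2 and 46.5 CPM with PBS. Oasl2, of the oligoadenylate synthetase family that senses double-stranded RNA, had 29.5 and 23.5 CPM with 22-B3, 81.1 and 70.1 CPM with WT IL-22, and 16.5 and 11.99 CPM with PBS. Its relative Oas3 had 6.78 and 4.38 CPM with 22-B3, 29.3 and 19.6 CPM with WT IL-22, and 2.06 and 3.23 CPM with PBS. In all 3 the treatments did not overlap, and for Gbp2 the 22-B3 and PBS libraries did. Ifit1, which binds foreign RNA, had 11.1 and 9.82 CPM with 22-B3, 26.6 and 27.2 CPM with WT IL-22, and 10.03 and 9.13 CPM with PBS, so it too stood at the PBS level with 22-B3. The log2 changes were -1.68 for Gbp2, -1.51 for Oasl2, -2.13 for Oas3 and -1.36 for Ifit1, with edgeR adjusted p of 0.0724, 0.0724, 0.0874 and 0.0996 in that order.

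2 of the 11, apart from antibody segments, stood higher with 22-B3. Cyp2c68, a cytochrome P450 whose reads may be shared with its close paralogs, had 82.3 and 65.8 CPM with 22-B3, 15.99 and 23.3 CPM with WT IL-22, and 174 and 176 CPM with PBS. Its log2 change was 1.91 (SE 0.239, edgeR adjusted p = 0.0594). Fxyd4, a small membrane protein that regulates the sodium-potassium pump, had 83.1 and 63.3 CPM with 22-B3, 23.6 and 25.8 CPM with WT IL-22, and 70.2 and 61.0 CPM with PBS (log2 change 1.57, edgeR adjusted p = 0.0724). For Fxyd4 the 22-B3 and PBS libraries overlapped, whereas for Cyp2c68 the 22-B3 libraries lay between the other groups.

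**Figure D2:**
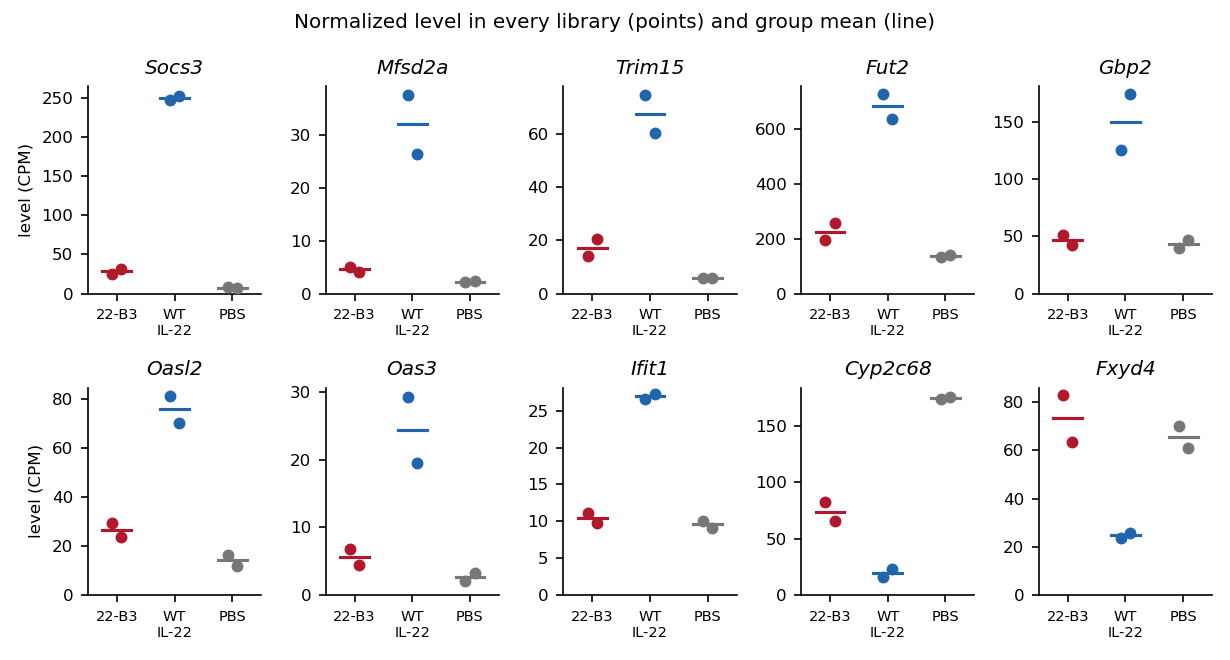
Level in CPM (vertical axis, starting at 0) of 10 genes in every library: 22-B3, WT IL-22 and PBS from left to right, with 2 points and the mean as a line per group. In each panel the 22-B3 points are clear of the WT IL-22 points, as for Socs3 at 25.3 and 31.9 against 247 and 253 CPM, and on the PBS side of them.

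The rises that passed were in antibody segments. Ighv1-54 (ENSMUSG00000094787, chromosome 12, 115193675 to 115194108) had 234 and 183 counts with 22-B3, 2 and 0 with WT IL-22, and a mean of 1.19 ± 0.0618 CPM with PBS (SD, n = 2). Its ratio of 22-B3 over WT IL-22 was 256 with a 95% counting interval of 70.4 to 2119, and its edgeR adjusted p was 0.00312. Igkv2-109 (ENSMUSG00000094749, chromosome 6, 68302439 to 68303160) had 292 and 170 counts with 22-B3 and 1 and 11 with WT IL-22 (log2 change 5.54, SE 0.616, edgeR adjusted p = 0.0415), against 6.89 and 9.60 CPM with PBS. Ighv1-84 did not pass, with 81 counts over the 22-B3 pair and 0 over the WT IL-22 pair, at least 33.1-fold higher against a floor of 3 counts over the pair. Which segments are used differs between B cell clones. Of 222 in the table, 123 were tested, and 62 of these differed at least 4-fold between the 22-B3 replicates, 59 between those of WT IL-22 and 6 between those of PBS. Igha, the constant gene of IgA, was less uneven but also differed within the pairs. It had 1215 and 663 CPM with 22-B3 and 1043 and 728 CPM with WT IL-22. Igkv2-109 no longer passed in 5 of its 17 alternatives (edgeR without robust estimation gave an adjusted p of 0.0939), and Ighv1-54 failed in 1 of 17.

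Gene lists are described below by how many tested members passed and by a second rule, chosen after the values were seen: the 22-B3 and WT IL-22 libraries do not overlap and the group means differ at least 1.5-fold. Over all genes, 579 (3.78%) met it on the higher side and 612 (4%) on the lower side. Without the fold requirement, 2676 genes (17.5%) did not overlap in each direction. Only Socs3 and Mfsd2a passed the test among the members of the 45 lists, so for every other member the values stand without a call.

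The receptor and kinase genes come first in the pathway. Il22ra1 had 41.6 and 33.4 CPM with 22-B3, 33.5 and 28.5 CPM with WT IL-22, and 34.9 and 34.8 CPM with PBS. Its interval allowed log2 changes from -0.18 to 0.74, and that of the partner chain Il10rb allowed -0.23 to 0.60. The soluble decoy receptor Il22ra2, which binds the cytokine away from cells, had 7.51 and 6.22 CPM with 22-B3 against 5.92 and 9.94 CPM with WT IL-22. Of the 16 genes of the receptor and JAK-STAT list, 14 had a negative fitted change, with a median log2 change of -0.16 (-0.34 without 22-B3 replicate 1, -0.05 without replicate 2), and 1 met the second rule. That gene was Il4ra, the interleukin-4 receptor chain, with 30.9 and 30.7 CPM with 22-B3, 53.8 and 52.8 CPM with WT IL-22, and 30.2 and 29.6 CPM with PBS (log2 change -0.79, edgeR adjusted p = 0.361). Stat3 itself had 195 and 136 CPM with 22-B3 and 249 and 207 CPM with WT IL-22, with an interval of -0.98 to 0.06.

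Feedback inhibitors and other STAT3-induced regulators stood lower with 22-B3 in most cases. Among 8 SOCS genes, Socs3 passed and Socs1, which restrains interferon signalling, met the second rule at 3.25 and 2.39 CPM with 22-B3 against 6.62 and 6.39 CPM with WT IL-22. The median of the 8 was -0.16 (-0.41 without 22-B3 replicate 1, -0.08 without WT IL-22 replicate 1). Of the 20 STAT3-induced regulators, 17 had a negative fitted change and 7 (35%) met the second rule on the lower side, against 4% of all genes, with a median of -0.41 that came to -0.23 without 22-B3 replicate 2. They were Socs3, Bcl3, Il4ra, Myc, Pim3, Nfil3 and Icam1. Bcl3, a nuclear partner of NF-kB, had 45.8 and 40.1 CPM with 22-B3, 120 and 78.6 CPM with WT IL-22, and 29.2 and 31.0 CPM with PBS (log2 change -1.21). Pim3, a survival kinase, had 104 and 127 CPM with 22-B3, 196 and 209 CPM with WT IL-22, and 96.2 and 94.5 CPM with PBS. In each of the 7 genes the treatment means lay further apart than the means of 22-B3 and PBS. These genes were picked by their difference between the treatments. Batf, a transcription factor of lymphocytes near 1 CPM, was the 1 member on the higher side.

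**Figure D3:**
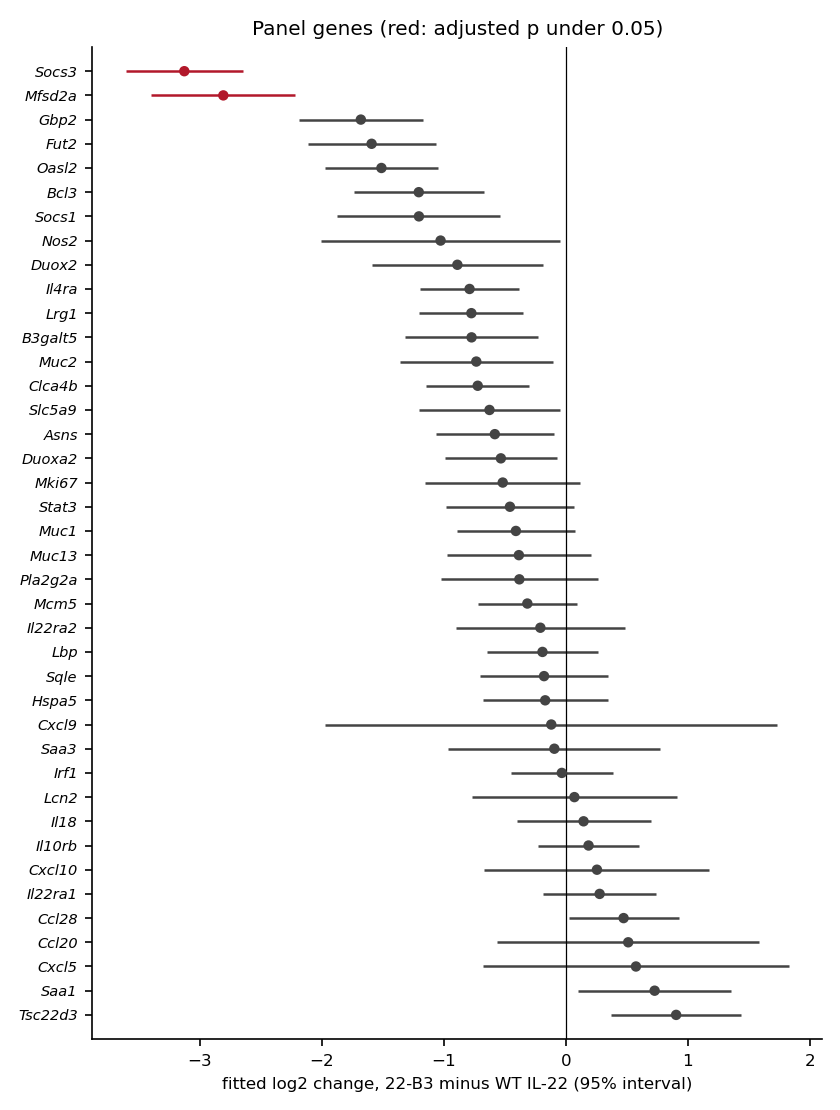
Fitted log2 change, 22-B3 minus WT IL-22, on the horizontal axis, with its 95% interval as a line, for 40 genes of a fixed panel of IL-22 pathway and target genes, ordered by size. Socs3 and Mfsd2a in red passed, intervals from Gbp2 to Duoxa2 lie below 0 without an adjusted p under 0.05, and those of Irf1, Il10rb and Il22ra1 span 0. Reg3b and Reg3g are left out because their intervals run from -9.03 to 5.39.

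Interferon-stimulated genes stood lower with 22-B3 as a group. Of 38 tested, 33 had a negative fitted change, 10 (26.3%) met the second rule on the lower side and 0 on the higher side, and the median log2 change was -0.38. Isg15, a ubiquitin-like modifier, had 8.52 and 10.9 CPM with 22-B3, 18.5 and 24.6 CPM with WT IL-22, and 9.77 and 8.66 CPM with PBS. Zbp1, a sensor of left-handed nucleic acid, had 41.5 and 36.0 CPM with 22-B3, 62.4 and 66.2 CPM with WT IL-22, and 10.7 and 11.5 CPM with PBS. Isg15 thus overlapped PBS with 22-B3, while Zbp1 stood well above it. Herc6, an ISG15 ligase in mice, had 12.2 and 4.94 CPM with 22-B3 against 27.3 and 23.2 CPM with WT IL-22, a wide spread within the variant's pair. The list's mean log2 level, relative to its WT IL-22 mean, was -0.44 and -0.56 in the 22-B3 libraries, -0.05 and 0.05 in those of WT IL-22, and -0.66 in both PBS libraries.

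The guanylate-binding and immunity-related GTPases had 15 of 16 negative fitted changes and a median of -0.42. Here the libraries of the groups came close: the list stood at -0.24 and -0.59 in the 22-B3 libraries and at -0.22 and 0.22 in those of WT IL-22. The PBS libraries stood at -0.07 and -0.23, so they were not below those of 22-B3 as in the interferon list. Without WT IL-22 replicate 2 the median was -0.14. Over all libraries left out in turn it ran from -0.62 to that value. Irf1, the transcription factor upstream of many such genes, had 115 and 102 CPM with 22-B3 and 117 and 105 CPM with WT IL-22 (interval -0.45 to 0.38). The MHC class I list had a median of -0.09 and the class II list one of 0.04. The class II list stood at 0.34 and -0.33 in the 22-B3 libraries and at -0.28 and 0.28 in those of WT IL-22.

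Secreted defence proteins did not share a direction. The median of 19 antimicrobial genes was 0.04, a sign that turned under 7 of 18 alternatives, with 3 members meeting the second rule on the lower side and 1 on the higher. The mean of the list had the other sign, at -0.53 and -0.42 in the 22-B3 libraries and -0.03 and 0.03 in those of WT IL-22. Within the list, Reg1, Reg3g and Reg3b had the largest negative fitted changes, at -2.71, -1.97 and -1.70. Reg1 stood near the floor, at 0 and 0.333 CPM with 22-B3 against 0.699 and 1.55 CPM with WT IL-22. Duox2, the epithelial oxidase that makes hydrogen peroxide, had 100 and 61.7 CPM with 22-B3, 190 and 110 CPM with WT IL-22, and 31.6 and 33.7 CPM with PBS (log2 change -0.89, edgeR adjusted p = 0.778). Its maturation factor Duoxa2 had 22.0 and 17.9 CPM with 22-B3 and 30.5 and 27.3 CPM with WT IL-22. Reg3b, a lectin that kills bacteria, had 26.5 and 362.5 CPM with 22-B3 and 1097 and 167 CPM with WT IL-22. It had a count of 0 in both PBS libraries, which allows up to 0.154 and 0.156 CPM (3 counts). Reg3g behaved alike, at 6.61 and 90.2 CPM with 22-B3 and 331 and 49.9 CPM with WT IL-22. For both genes the treatments overlapped, and without WT IL-22 replicate 1 the log2 change of Reg3b turned to 0.22. Lcn2, which withholds iron from bacteria, stood near 2 CPM in every treated library (interval -0.77 to 0.91).

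Acute phase genes stood lower with 22-B3 in most cases. Of 12 tested, 9 had a negative and 3 a positive fitted change. On the lower side 4 (33.3%) met the second rule, against 4% of all genes, and on the higher side 1 (8.33%), against 3.78%. The median was -0.25, and it came to -0.12 without WT IL-22 replicate 2. Lrg1, a plasma glycoprotein, had 20.5 and 18.9 CPM with 22-B3, 33.2 and 34.2 CPM with WT IL-22, and 7.15 and 7.09 CPM with PBS (log2 change -0.78, edgeR adjusted p = 0.406). Lbp, which hands lipopolysaccharide to its receptor, had 38.3 and 41.2 CPM with 22-B3, 39.6 and 51.2 CPM with WT IL-22, and 6.38 and 5.89 CPM with PBS. Its treatments overlapped, and the interval of the log2 change was -0.65 to 0.26. Saa1, a serum amyloid, had 1744 and 1966 CPM with 22-B3 and 1366 and 875 CPM with WT IL-22 (log2 change 0.73, edgeR adjusted p = 0.808). WT IL-22 replicate 2 also held 1215 counts over 6 liver genes and 918 over 9 pancreas genes, while WT IL-22 replicate 1 held 46 and 6. The liver genes had 40 and 52 counts in the 22-B3 libraries and 208 and 203 in the PBS libraries, and the pancreas genes had 7 and 13 with 22-B3 and 13 and 17 with PBS. The part of these liver and pancreas counts in the differences was not tested.

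Mucins and the enzymes that build their glycans stood lower with 22-B3 in part. All 7 tested mucins had a negative fitted change, with a median of -0.41, and 2 met the second rule. Without WT IL-22 replicate 1 the median was -0.20. Muc2, the gel-forming mucin of goblet cells, had 470 and 517 CPM with 22-B3, 1026 and 617 CPM with WT IL-22, and 689 and 686 CPM with PBS. Both 22-B3 libraries thus lay below PBS, as did WT IL-22 replicate 2, and only WT IL-22 replicate 1 lay above it. Muc13, a membrane mucin, had 2344 and 1759 CPM with 22-B3, 2896 and 2464 CPM with WT IL-22, and 852 and 810 CPM with PBS, with an interval of -0.97 to 0.20. Of 26 glycosylation genes 5 (19.2%) met the second rule on the lower side and 0 on the higher: Fut2, B3galt5, B3gnt5, B4galnt2 and Gcnt3. B3galt5, a galactosyltransferase, had 719 and 952 CPM with 22-B3, 1375 and 1481 CPM with WT IL-22, and 518 and 534 CPM with PBS. The median of all 26 was -0.13, and it was 0.03 without WT IL-22 replicate 1. Chst4, a sulfotransferase of mucin-type glycans that is outside the naming rule and was chosen after its values were seen, had 77.1 and 103 CPM with 22-B3, 230 and 232 CPM with WT IL-22, and 84.5 and 86.5 CPM with PBS (log2 change -1.36, edgeR adjusted p = 0.122, DESeq2 adjusted p = 2.04e-06). Clca4b, a secreted chloride channel regulator with close paralogs, had 118 and 109 CPM with 22-B3, 176 and 198 CPM with WT IL-22, and only 2.16 and 2.03 CPM with PBS.

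Genes of ribosome production stood lower with 22-B3, at like levels in both of its libraries. Of 36 tested, 33 had a negative fitted change, 11 (30.6%) met the second rule on the lower side and 0 on the higher, and the median was -0.45. Across all 18 alternatives the median stayed between -0.53 and -0.40. The 22-B3 libraries stood at -0.43 and -0.46, the WT IL-22 libraries at 0.04 and -0.04, and the PBS libraries at -0.82 and -0.81 relative to the WT IL-22 mean. Myc, which drives ribosome production, had 22.8 and 16.9 CPM with 22-B3, 53.9 and 35.5 CPM with WT IL-22, and 16.5 and 18.6 CPM with PBS (log2 change -1.17, edgeR adjusted p = 0.359). Heatr1, a factor for ribosomal RNA processing, had 27.2 and 21.5 CPM with 22-B3, 44.9 and 44.4 CPM with WT IL-22, and 18.8 and 18.4 CPM with PBS. Nolc1, Mybbp1a and Rrp1b, further nucleolar proteins, had log2 changes of -0.73, -0.73 and -1.11.

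Amino acid supply and cell division genes showed smaller differences. In the list of ATF4 targets and tRNA synthetases, 25 of 31 fitted changes were negative (median -0.30), with 3 members meeting the second rule on the lower side and 1 on the higher, the stress-induced mTORC1 inhibitor Ddit4. Slc7a5, the large neutral amino acid transporter, had 23.1 and 18.7 CPM with 22-B3, 46.8 and 39.4 CPM with WT IL-22, and 13.0 and 14.8 CPM with PBS (log2 change -1.05). DNA replication genes had 35 of 43 negative fitted changes and a median of -0.30, but only 1 (2.33%) met the second rule, below the background of 4%. Mcm5, a subunit of the replicative helicase, had 123 and 119 CPM with 22-B3, 147 and 155 CPM with WT IL-22, and 40.4 and 41.5 CPM with PBS. Its interval was -0.72 to 0.09, and both treatments stood far above PBS. Mitosis genes had a median of -0.21 (-0.10 without 22-B3 replicate 1), and Mki67, a marker of dividing cells, had 92.9 and 56.1 CPM with 22-B3 against 127 and 86.5 CPM with WT IL-22. Ccnd1, the G1 cyclin, chosen after its values were seen, had 116 and 107 CPM with 22-B3, 228 and 222 CPM with WT IL-22, and 77.3 and 78.5 CPM with PBS (edgeR adjusted p = 0.258).

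The endoplasmic reticulum and sterol lists had medians near that of all genes. The median was -0.09 for 26 chaperone and unfolded protein genes, and 0 of them met the second rule. Hspa5, the main chaperone of that compartment, had 673 and 822 CPM with 22-B3, 796 and 885 CPM with WT IL-22, and 451 and 432 CPM with PBS (interval -0.68 to 0.34). For 25 cholesterol synthesis genes the median was 0.01, also with 0 members meeting the rule. Sqle, squalene epoxidase, had 292 and 204 CPM with 22-B3, 303 and 260 CPM with WT IL-22, and 153 and 151 CPM with PBS. A p that misses the threshold does not show equal levels.

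Transport and metabolism held single genes with larger differences. Slc9a3, the sodium-proton exchanger of the brush border, had 80.0 and 118 CPM with 22-B3, 235 and 179 CPM with WT IL-22, and 95.9 and 88.2 CPM with PBS (log2 change -1.06, edgeR adjusted p = 0.377). Aqp4, a water channel, had 354 and 515 CPM with 22-B3, 707 and 793 CPM with WT IL-22, and 418 and 419 CPM with PBS. In both genes the 22-B3 libraries lay on either side of PBS. Slc5a9, a sugar transporter, had 40.4 and 28.7 CPM with 22-B3, 63.9 and 42.9 CPM with WT IL-22, and 4.89 and 4.43 CPM with PBS, so it stood far above PBS with both. Hk2, the hexokinase that starts glycolysis, had 111 and 70.7 CPM with 22-B3, 293 and 183 CPM with WT IL-22, and 73.5 and 85.1 CPM with PBS (log2 change -1.39), while the median of the 26 glycolysis and hypoxia genes was 0.13. Of the 27 transport genes, 4 met the second rule on the lower side and 2 on the higher.

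On the higher side, 3 of 5 tested Cyp2c genes and 3 of 15 glucocorticoid response genes met the second rule. The share over all genes on that side was 3.78%. The glucocorticoid list had 11 positive and 4 negative fitted changes and a median of only 0.07, which kept its sign in 16 of 18 alternatives. Cyp2c69, a neighbour and paralog of Cyp2c68, had 4.71 and 8.10 CPM with 22-B3, 1.31 and 2.09 CPM with WT IL-22, and 22.1 and 21.7 CPM with PBS. Mt1, a metal-binding metallothionein, had 236 and 202 CPM with 22-B3, 118 and 84.9 CPM with WT IL-22, and 158 and 131 CPM with PBS (log2 change 1.11, edgeR adjusted p = 0.328), so both 22-B3 libraries lay above PBS. Tsc22d3, a glucocorticoid-induced leucine zipper protein, had 66.4 and 103 CPM with 22-B3, 42.4 and 47.9 CPM with WT IL-22, and 156 and 132 CPM with PBS. A pair of further genes was chosen after their values were seen. Selenbp1, a sulfur-metabolizing enzyme of mature epithelium, had 1108 and 1025 CPM with 22-B3, 558 and 500 CPM with WT IL-22, and 1219 and 1205 CPM with PBS (edgeR adjusted p = 0.358, log2 change 1.01). Prdx6, an antioxidant peroxiredoxin, had 3048 and 1754 CPM with 22-B3, 988 and 847 CPM with WT IL-22, and 2968 and 2824 CPM with PBS.

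Inflammatory mediators ranged from traces to high levels. The chemokine list had a median of 0.25 over 20 tested genes (0.11 without WT IL-22 replicate 1, 0.46 without replicate 2). WT IL-22 replicate 2 stood at 0.25, next to the 22-B3 libraries at 0.37 and 0.28. On the higher side 3 of the 20 (15%) met the second rule, against 3.78% of all genes. Among them was Ccl5, at only 2.19 and 1.22 CPM with 22-B3 against 0.653 and 1.02 CPM with WT IL-22. Ccl8 was another, at 3.19 and 2.39 CPM with 22-B3 against 1.26 and 1.64 CPM with WT IL-22. Cxcl5, which attracts neutrophils, had 4.54 and 8.38 CPM with 22-B3, 1.91 and 6.74 CPM with WT IL-22, and 0.412 and 1.15 CPM with PBS. Cxcl10 had 2.41 and 1.55 CPM with 22-B3 and 1.68 and 1.64 CPM with WT IL-22, and Cxcl9 had 3.14 and 0.666 CPM with 22-B3 and 0.793 and 3.33 CPM with WT IL-22. For Cxcl5, Cxcl10 and Cxcl9 the treatments overlapped. Il18, an epithelial cytokine, had 109 and 170 CPM with 22-B3 and 115 and 138 CPM with WT IL-22 (interval -0.40 to 0.69). Il1rn, the interleukin-1 receptor antagonist, had 60.4 and 51.2 CPM with 22-B3, 30.3 and 33.2 CPM with WT IL-22, and 60.5 and 67.1 CPM with PBS (log2 change 0.81, edgeR adjusted p = 0.377). Of the 19 cytokine genes, 9 were too low to test, among them Il22, Il6 and Ifng.

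Markers of position and cell type were not equal between the groups. Of 18 tested Hox and regional genes, 5 (27.8%) met the second rule on the higher side, against 3.78% of all genes. They were Hoxb13, Hoxd13, Hoxd11, Hoxd10 and Fabp6. In the whole list, 10 fitted changes were positive and 8 negative. Hoxd13 met the rule narrowly, at 117 and 76.5 CPM with 22-B3 against 36.6 and 73.9 CPM with WT IL-22. Hoxb13, a transcription factor of the distal colon, had 453 and 386 CPM with 22-B3, 230 and 278 CPM with WT IL-22, and 380 and 384 CPM with PBS. The list's median was 0.07 (0.34 without WT IL-22 replicate 1), and the part of sampling position in the results was not tested. Colonocyte markers had a median of 0.13 over 12 genes, with summed levels of 17575 and 18666 CPM with 22-B3 and 17065 and 15955 CPM with WT IL-22. Goblet cell markers had a median of 0.09, although Muc2 stood lower, and a mean of the other sign at -0.01 and -0.07 in the 22-B3 libraries, and their sums overlapped. Smooth muscle markers had 12 of 14 positive fitted changes, a median of 0.36, and sums of 11182 and 13931 CPM with 22-B3, 8080 and 11340 CPM with WT IL-22, and 16138 and 16286 CPM with PBS. The median ran from 0.15 without WT IL-22 replicate 1 to 0.61 without WT IL-22 replicate 2. B cell and plasma cell markers stood at 0.23 and -0.94 in the 22-B3 libraries and at -0.11 and 0.11 in those of WT IL-22, so the variant's pair lay on both sides. Enteric neuron and glia markers had 11 of 13 negative fitted changes and a median of -0.34 (-0.17 without WT IL-22 replicate 1), with sums of 116 and 121 CPM with 22-B3 and 155 and 131 CPM with WT IL-22. Tuft cell markers had a median of -0.36 over 9 tested genes, which ran from -0.58 without 22-B3 replicate 1 to -0.14 without 22-B3 replicate 2. Macrophage markers had 10 of 12 positive fitted changes and a median of 0.17 (0.03 without WT IL-22 replicate 1, 0.48 without replicate 2), with sums of 464 and 461 CPM with 22-B3 and 348 and 487 CPM with WT IL-22. Fibroblast, endothelial and enteroendocrine markers had medians from -0.13 to -0.05, each of which changed sign when 1 library was left out. Of 11 neutrophil markers only 5 were tested, and of 12 mast cell markers 4. The part of these cell types in the gene differences was not tested.

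The lists also show how far the 2 libraries of the variant went together. Of 41 lists with at least 7 tested members, both 22-B3 libraries lay below both WT IL-22 libraries in 18 and above both in 5. Among single genes, 17.5% did not overlap in each direction. That share is for single genes and not for means over a list, so it is no background for the 18 and the 5. Some lists shared members, and some margins were small. The chaperone list, counted as below, stood at -0.0979 and -0.0197 with 22-B3 and at 0.0188 and -0.0188 with WT IL-22. The libraries of the variant lay close together for ribosome production, at -0.43 and -0.46, and far apart for MHC class II, at 0.34 and -0.33, and for adipocyte markers, at 0.55 and -0.66. Single genes differed far more. St3gal4, a sialyltransferase, had 526 and 16.6 CPM with 22-B3 and 454 and 268 CPM with WT IL-22. Ang4, an antimicrobial ribonuclease of the crypt, had 402.5 and 74.5 CPM with 22-B3, 119 and 336 CPM with WT IL-22, and 551 and 557 CPM with PBS. Nxpe4 had 98.7 and 1.89 CPM with 22-B3 and 79.2 and 2.04 CPM with WT IL-22, so within each pair replicate 1 was high and replicate 2 stood near the PBS libraries at 2.62 and 2.03 CPM. In all, 969 genes (6.33%) differed at least 2-fold between the 22-B3 replicates, 671 (4.39%) between those of WT IL-22 and 421 (2.75%) between those of PBS.

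**Figure D4:**
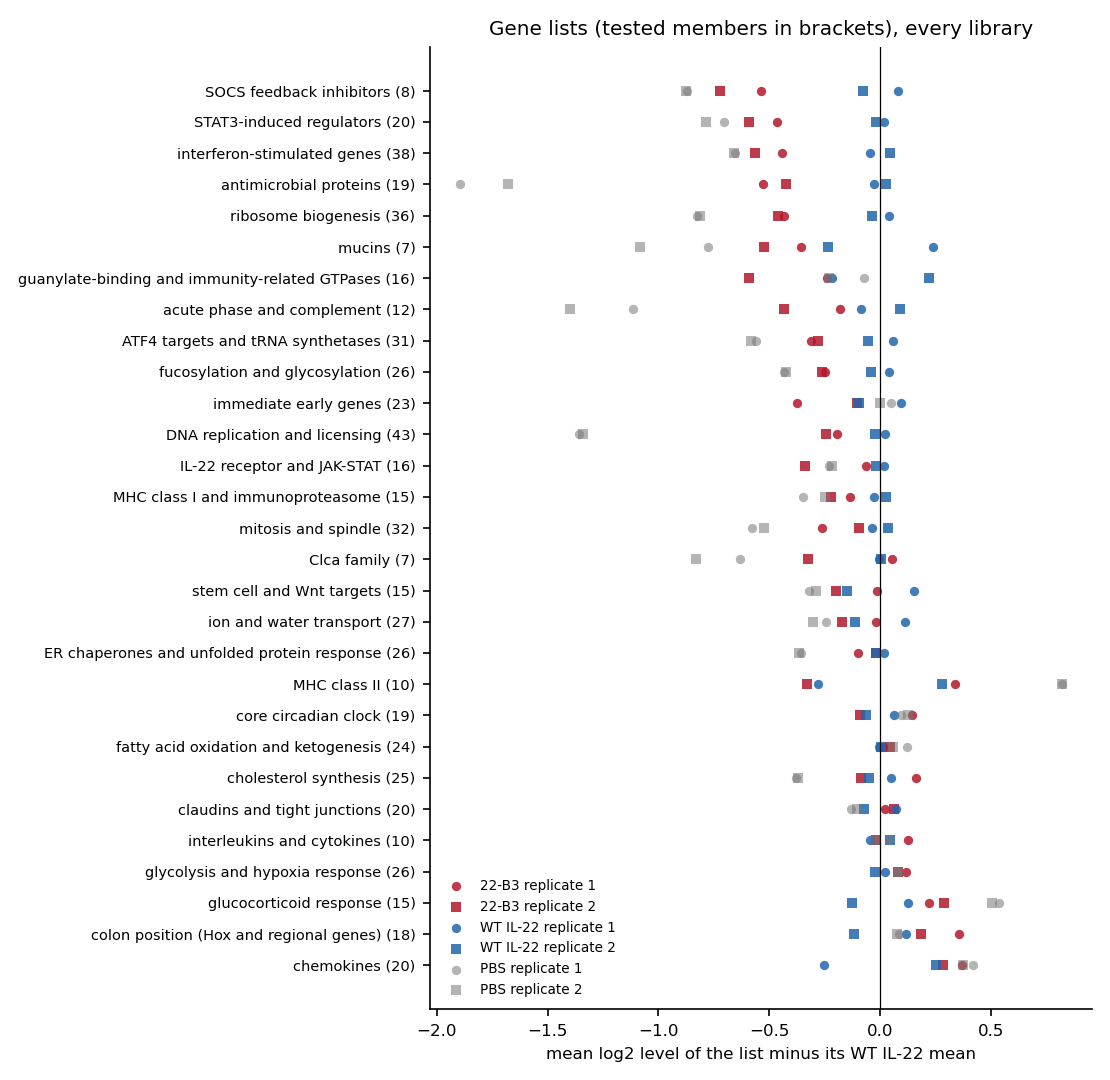
Mean log2 level of the pathway and function lists (tested members in brackets) in every library, relative to its mean over the 2 WT IL-22 libraries, on the horizontal axis, with circles for replicate 1 and squares for replicate 2 of 22-B3 (red), WT IL-22 (blue) and PBS (grey). For ribosome biogenesis the red points at -0.43 and -0.46 lie between the blue and the grey ones, while for MHC class II the red points at 0.34 and -0.33 lie far apart.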

How the data were processed

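Colon RNA was measured by RNA-seq in 6 libraries, of which the 4 of 22-B3 and WT IL-22 entered the test. The deposited counts are whole numbers of reads per gene without any normalization, per the file headers. The deposited FPKM values were computed by the authors from those counts, with a largest relative deviation of 4.97e-12 from the count over gene length and column total. The submitters' processing notes name STAR 2.5 and mm10. The counting tool and its use of strand are not given in the sources used here. Overlapping and antisense genes therefore cannot be told apart.

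Genes with a count of 10 or more in at least 2 of the 4 libraries were kept. TMM factors used WT IL-22 replicate 1 as their base, and CPM levels are on that scale. edgeR 4.0.16 in R 4.3.3 fitted 1 mean per group with the robust quasi-likelihood test and Benjamini-Hochberg adjustment over all 15302 genes. The threshold was an adjusted p under 0.05. Intervals are at 95%, and intervals or floors from counts cover counting error only, since reads without molecular identifiers are not independent molecules. With 2 libraries against 2, an exact permutation test of a single value cannot go below 0.333 (two-sided), so none is given. Since separate animals are not stated, p-values reflect only how these libraries vary, in part perhaps for technical reasons.

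Gene symbols are those of GENCODE for the deposited gene IDs, which matched for 34490 of 35275 IDs (97.8%), and coordinates are those of the deposited table. The text names up to 12 genes per direction that passed, did not overlap and had a mean count of at least 50, leaving out antibody segments, 42 genes of a fixed panel (1 further panel gene is not reported here), and in each of 45 lists up to 4 members that passed and 2 that did not. Genes with an adjusted p under 0.1, antibody segments and a few others were chosen after their values were seen. The members, the panel and the lists were chosen with earlier results of these data known. Alternatives were run with DESeq2 1.42.0, limma 3.58.1, other scalings, filters and sets of libraries. The test was tested on simulated data.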

Additional observations from a re-analysis of the deposited data

How the results depend on the processing

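Of the numbers of genes called by edgeR's quasi-likelihood test, 2 higher and 2 lower, both were unchanged with RLE factors, upper-quartile factors and filterByExpr, which called the same 4 genes. limma-voom also called 2 and 2 but kept 3 of the 4, with Igkv2-109 at an adjusted p of 0.113. Column totals gave 2 and 3 and moved the median log2 change of all genes to -0.059. The calls, higher and then lower, were 11 and 35 with no filter on low counts, 1 and 2 with a count of 50 in 2 libraries, 24 and 56 with DESeq2, 4 and 6 with limma on log2(FPKM + 1), 1 and 3 on log2(FPKM + 0.1), 1 and 2 without robust estimation, and 5 and 11 with all 6 libraries. With antibody segments and 3 RNAs removed they were 0 and 2, against 438 and 481 at an unadjusted p under 0.05. Both genes called higher in the main fit, Ighv1-54 and Igkv2-109, were among the segments removed in that setting. The cause of the other changes was not tested. Leaving out each library in turn gave 23 to 45 higher and 33 to 58 lower. There the lone library of a group is assumed to vary like the pair that is left.

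With the replicate number as a block, 1 gene was higher (Ighv1-54) and 6 lower: Socs3, Mfsd2a, Oasl2, Oas3 and Hk2 (edgeR adjusted p = 0.0306 for each of the last 3) and Igkv5-48 (0.0316). Igkv2-109 did not pass there (0.119). Deviations of same-numbered libraries correlated at r = 0.214 across genes with only 2 pairs, so the numbers are not shown to pair the libraries.

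Socs3 and Mfsd2a passed in every one of the 18 alternatives. The genes whose sign changed were ones that did not pass, and the median of 21 of the 45 lists changed sign in at least 1 alternative. Leaving out each library in turn, the log2 change ran from -0.0064 to 0.89 for Ccl20, -0.059 to 1.75 for Cxcl5, -0.36 to 0.0045 for Lbp, -0.46 to 0.056 for Sqle, -4.58 to 0.22 for Reg3b, -0.53 to 0.21 for Il22ra2, -0.095 to 0.54 for Cxcl10, -0.21 to 0.43 for Il18, -0.17 to 0.27 for Lcn2, -0.12 to 0.052 for Irf1 and -1.62 to 1.26 for Cxcl9. Lcn2 stood at -0.0033 on log2(FPKM + 0.1). With 2 libraries per group and a coefficient of variation of 19.5% between libraries, small differences could not be shown.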

Other observations

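The genes in this section were chosen after their values were seen, from those with the smallest p below the threshold, and none passed edgeR's test. Several are epithelial regulators that stood between the other groups with 22-B3. Ptk6, a tyrosine kinase of differentiating gut epithelium, had 39.5 and 42.7 CPM with 22-B3, 85.5 and 96.9 CPM with WT IL-22, and 10.6 and 9.80 CPM with PBS (log2 change -1.15, edgeR adjusted p = 0.13). Isx, an intestine-specific homeobox factor that restrains carotenoid uptake, had 17.0 and 24.7 CPM with 22-B3, 92.8 and 55.2 CPM with WT IL-22, and 10.5 and 8.81 CPM with PBS. Tifa, an adaptor that links bacterial sugar sensing to NF-kB, had 63.3 and 106 CPM with 22-B3, 240.2 and 210.3 CPM with WT IL-22, and 47.0 and 42.9 CPM with PBS. Card14, a scaffold of the same pathway, had 33.7 and 31.5 CPM with 22-B3, 62.1 and 59.8 CPM with WT IL-22, and 15.5 and 15.3 CPM with PBS. In these 4 genes both 22-B3 libraries stood above both PBS libraries. The treatments did not overlap, as for 17.5% of all genes in each direction, and DESeq2 called all 4 lower. Since the genes were chosen by their small p in the same counts, neither is separate support.

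Further genes chosen in this way have other roles in the tissue. Sycn, a secretory granule protein, had 925 and 825 CPM with 22-B3, 384 and 299.8 CPM with WT IL-22, and 802 and 750.4 CPM with PBS (log2 change 1.36, edgeR adjusted p = 0.195). S100g, a calcium-binding protein of absorptive cells, had 16.4 and 4.66 CPM with 22-B3, 1.17 and 1.60 CPM with WT IL-22, and 11.3 and 9.70 CPM with PBS. Slc37a2, a sugar phosphate exchanger, had 168 and 169.7 CPM with 22-B3, 86.4 and 97.7 CPM with WT IL-22, and 217 and 219.96 CPM with PBS. Egr1, an immediate early transcription factor, had 11.8 and 15.6 CPM with 22-B3, 38.7 and 25.3 CPM with WT IL-22, and 19.9 and 21.7 CPM with PBS, so both 22-B3 libraries lay below PBS.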
